A study of Mus musculus with 6 samples.

Results

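The growth hormone, STAT5 and IGF1 axis was examined in RNA from mouse liver tumors through 10 genes: Ghr, Jak2, Stat5a, Stat5b, Socs2, Cish, Igf1, Igfals, Igfbp2 and Igfbp3. They were taken by gene symbol from a table of 30236 genes, and 10 of 10 were found and passed the filter on low values. The table holds 3 tumors from WT mice and 3 from Top1mt -/- mice, called Top1mt-KO here, which lack the mitochondrial topoisomerase gene Top1mt in the germline and therefore in every cell type of the tumor. Mice of both groups were male C57BL/6 littermates and received the same carcinogen treatment, diethylnitrosamine on postnatal day 14 followed by carbon tetrachloride for 14 weeks from 8 weeks of age, and tumors were collected at 22 weeks. No untreated liver was analysed here, so every value describes a tumor. The values are the authors' log2 expression levels, which behave like a regularized log, a transform that pulls weakly expressed genes toward their mean, which leaves library depth unknown, and differences of such genes are understated. The tumors are whole tissue, in which fewer cells of a type and less RNA per cell cannot be told apart.

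The labels were checked on the targeted gene. Top1mt had values of 7.71, 5.99 and 8.01 in WT replicates 1 to 3 and of 5.58, 6.41 and 6.32 in Top1mt-KO replicates 1 to 3, so the library labelled WT replicate 2 lay among the Top1mt-KO libraries against its label. In Top1mt-KO replicate 1 a single transcript, Gm42418, made up 17.7% of all values summed on the linear scale, against at most 0.387% in WT. Groups were kept as labelled, every direction below rests on those labels, and values without these libraries are given where they change a statement. Hepatocyte transcripts were abundant in all 6 libraries. The summed log2 level of 9 hepatocyte markers, albumin among them, ranged from 21.08 to 21.80 in WT and from 21.26 to 21.93 in Top1mt-KO.

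Growth hormone from the pituitary acts on hepatocytes through the receptor GHR, which carries the kinase JAK2 on its inner side. JAK2 phosphorylates STAT5A and STAT5B, and these enter the nucleus and switch on genes such as Socs2 and Cish, whose products dampen the receptor, and Igf1, whose product is the main growth factor the liver releases into blood. In blood, IGF1 travels in a complex with IGFBP3 and the acid-labile subunit encoded by Igfals. In the male mouse the pulses of growth hormone also set a sex-specific program of liver genes, for which STAT5B is the better known mediator.

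STAT5 binds the palindrome TTCNNNGAA, and the RefSeq promoter windows of the genes, from 250 bases before to 50 bases after each annotated start on GRCm38.p6, were searched for it. The word equals its own reverse complement in its fixed letters, so both strands are covered by 1 search. Windows existed for 9 of the 10 genes (15 windows), and 3 of these windows held a match, belonging to Cish and Igfals. Over all 32851 windows of the same length 8.30% held one. The windows shown are those that held a match. The window of Igf1, also a growth hormone target, held none, and Socs2 had no window. The letters in capitals are the palindrome. In Cish 2 copies began at the 1st and the 12th base from the annotated start (window chr9:107296654-107296683, plus strand). Igfals has more than one annotated start, and its copies began at -236 from one of them (chr17:24877598-24877627, plus strand) and at -58 from another (chr17:24878163-24878192, plus strand). A match is a description of the letters and no evidence of binding, and the windows do not reach distant enhancers.
Cish: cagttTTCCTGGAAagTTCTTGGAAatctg
Igfals, first start: gatctataatTTCTCAGAAaagaggctgag
Igfals, second start: ctgccaggtgTTCCTAGAAgaggccctggg

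To ask whether loss of Top1mt was accompanied by a different state of this axis, Top1mt-KO tumors were compared with WT tumors gene by gene. None of the 10 genes separated the genotypes. By limma 0 of 10 had an adjusted p under 0.05 (0% of the 22677 genes tested), and 0 of 10 had an unadjusted p under 0.05, where 4.34% of all genes tested did. The groups overlapped in 10 of 10 genes, whereas they did not overlap in 8.28% of all genes tested. The adjusted p by limma was 0.999 for each of the 10 genes. The log2 fold change was above 0 for 8 genes and below 0 for Jak2 and Igfbp3, with a median of 0.21 against -0.015 over all genes tested. It was above 0 for 6 of the 10 without the library labelled WT replicate 2 and for 5 without Top1mt-KO replicate 3. The sizes that these libraries leave possible differ widely between genes. The 95% intervals of the log2 fold change were narrow for Jak2 (-0.37 to 0.21) and Stat5b (-0.11 to 0.50) and wide for Socs2 (-0.21 to 2.14) and Cish (-0.76 to 1.54). The targeted gene Top1mt was not called either, at a log2 fold change of -1.13 (SE 0.52, adjusted p by limma 0.999) with overlapping groups. An absence of calls therefore does not show an absence of change. The paper, which used DESeq2, reported differentially expressed genes between the genotypes.

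**Figure D1:**
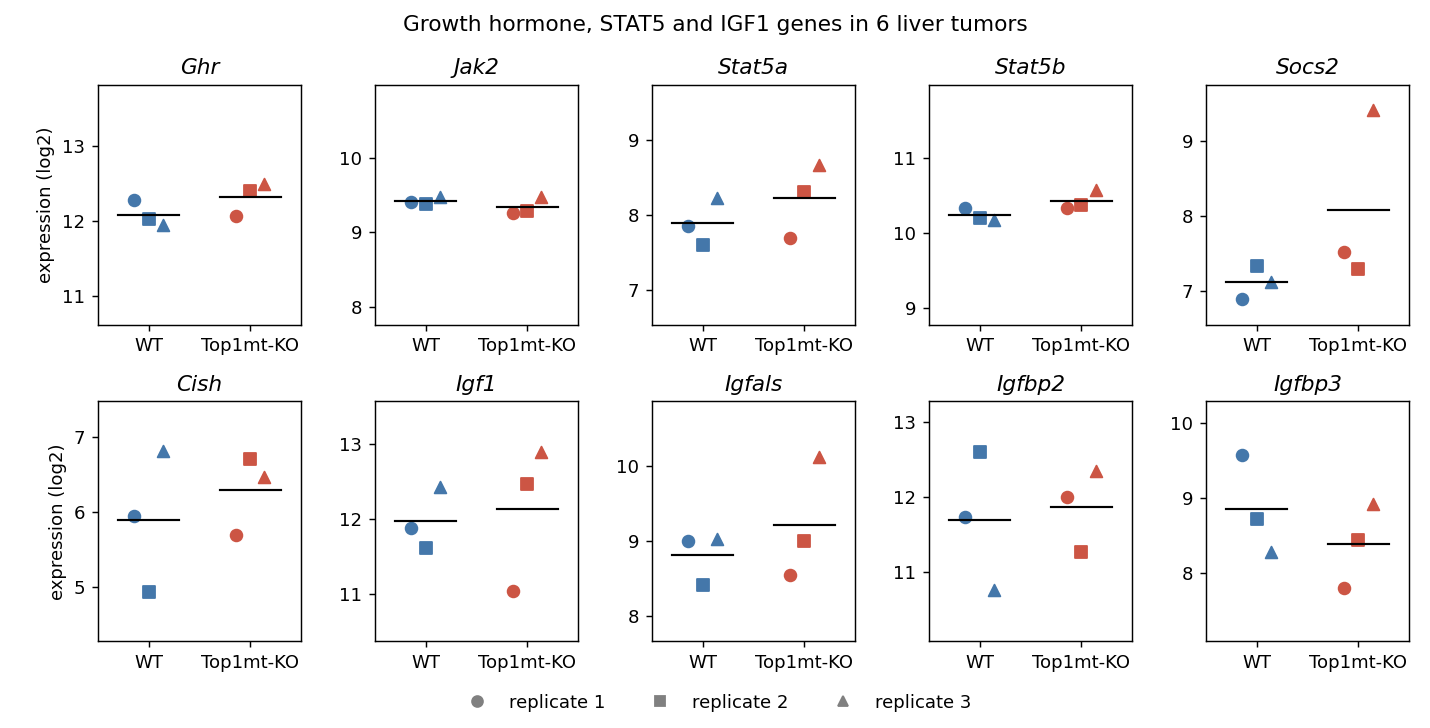
Each panel plots the log2 expression of 1 gene in the 6 tumors, WT at the left and Top1mt-KO at the right, with the replicate given by the symbol and the group mean by a line, and every panel spans the same 3.2 log2 units. The groups overlap in all 10 panels, Jak2 and Stat5b vary least, and the triangle of Top1mt-KO replicate 3 stands apart at 9.41 for Socs2.

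Of the receptor and its kinase, Jak2 was steady, and Ghr had a slightly higher mean in Top1mt-KO with overlapping groups. Ghr was 12.27, 12.03 and 11.94 in WT replicates 1 to 3 and 12.06, 12.40 and 12.48 in Top1mt-KO replicates 1 to 3. Replicates 2 and 3 of Top1mt-KO lay above all WT libraries and replicate 1 lay within them, giving a log2 fold change of 0.24 (standard error, SE, 0.18; p = 0.2 in an exact, two-sided permutation test, whose smallest p with 3 libraries a group is 0.1). Jak2 was 9.40, 9.38 and 9.47 in WT and 9.26, 9.29 and 9.47 in Top1mt-KO. It varied by 0.21 in all over the 6 tumors, the smallest range of the 10 genes, and its log2 fold change came to -0.078 (SE 0.13).

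Both STAT5 genes had means slightly higher in Top1mt-KO, within the spread of the replicates. Stat5b was 10.33, 10.19 and 10.17 in WT and 10.33, 10.37 and 10.57 in Top1mt-KO, and only Top1mt-KO replicate 1 fell inside the WT range. The log2 fold change came to 0.19 (SE 0.13; exact permutation p = 0.2). Stat5a was 7.85, 7.60 and 8.22 in WT and 7.69, 8.31 and 8.67 in Top1mt-KO, with a wider spread and a log2 fold change of 0.33 (SE 0.28). That value was 0.11 without Top1mt-KO replicate 3, 0.19 without the library labelled WT replicate 2 and 0.60 without Top1mt-KO replicate 1.

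Stat5b exceeded Stat5a in every tumor. Corrected for the length of their exons, the mean log2 level per kilobase was 7.86 ± 0.15 (SD, n = 6) for Stat5b and 5.22 ± 0.41 (SD, n = 6) for Stat5a, a 6.21-fold difference. The ratio of the genes within a tumor did not follow genotype, since Stat5b minus Stat5a on the log2 scale was 1.95 to 2.59 in WT and 1.91 to 2.63 in Top1mt-KO. Set beside Stat5b and Stat5a, the mean log2 level per kilobase was 8.19 for Stat6, 8.07 for Stat3, 7.36 for Stat2 and 2.36 for Stat4. In the order Stat6, Stat3, Stat5b and Stat2, neighbours had overlapping ranges over the 6 tumors, while Stat5a lay below these 4 in each tumor. Exons of Stat5a and Stat3 overlap on opposite strands in GENCODE M21, and whether the counting used strand was not given in the sources used here, so reads of one could be counted to the other.

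The STAT5 targets that feed back on the receptor had their extremes in different tumors. Socs2, whose product binds the activated receptor and limits growth, was 6.89, 7.34 and 7.11 in WT and 7.52, 7.29 and 9.41 in Top1mt-KO. The other libraries lay close together, and Top1mt-KO replicate 3 stood 1.89 above the next library. The log2 fold change of 0.96 (1.95-fold, SE 0.51) was the largest of the 10 genes and became 0.29 without Top1mt-KO replicate 3, while without Top1mt-KO replicate 2 it was 1.35 with an unadjusted p under 0.05 by limma. In that fit 4.50% of all genes had such a p. The groups did not overlap without Top1mt-KO replicate 2 or without the library labelled WT replicate 2, where 16.9% and 18.3% of all genes did not.
Cish, an inhibitor of STAT5 activation, was 5.94, 4.93 and 6.81 in WT and 5.69, 6.70 and 6.47 in Top1mt-KO. WT replicate 3 was its highest library and the library labelled WT replicate 2 its lowest, so both ends lay in WT. Its log2 fold change of 0.39 (SE 0.50) turned to -0.089 without the library labelled WT replicate 2. The difference Socs2 minus Cish within a tumor ran from 0.30 to 2.40 in WT and from 0.60 to 2.94 in Top1mt-KO. Exons of 2 antisense transcripts, Gm17040 and Gm17041, overlap Cish in the annotation.

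Igf1 and Igfals, the secreted outputs, spanned a wide range within Top1mt-KO. Igf1 was 11.89, 11.62 and 12.43 in WT and 11.04, 12.47 and 12.90 in Top1mt-KO, so that Top1mt-KO held both the lowest library and the 2 highest. Its log2 fold change came to 0.16 (SE 0.45; exact permutation p = 0.8), and it was 0.70 without Top1mt-KO replicate 1 and -0.22 without Top1mt-KO replicate 3. It was also just below 0 without the library labelled WT replicate 2 (-0.023) and without Top1mt-KO replicate 2 (-0.0087). Igfals was 9.002, 8.40 and 9.02 in WT and 8.54, 8.99 and 10.11 in Top1mt-KO, where replicate 3 lay 1.09 above every other tumor. Its log2 fold change of 0.41 (SE 0.38) became -0.040 without that library.

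Among the binding proteins, Igfbp2 and Igfbp3 had opposite signs, and neither separated the genotypes. Igfbp3, which forms the large circulating complex with IGF1 and is made mainly by the nonparenchymal cells of the liver, was 9.58, 8.72 and 8.28 in WT and 7.80, 8.44 and 8.93 in Top1mt-KO. WT replicate 1 was highest and Top1mt-KO replicate 1 lowest, and the log2 fold change came to -0.47 (SE 0.38). It was -0.11 without WT replicate 1, -0.18 without Top1mt-KO replicate 1, -0.76 without WT replicate 3 and -0.74 without Top1mt-KO replicate 3. Igfbp2, which rises in liver when growth hormone action is low, was 11.73, 12.59 and 10.75 in WT and 12.00, 11.27 and 12.34 in Top1mt-KO. The WT libraries again held both ends. The log2 fold change of 0.18 (SE 0.46) was 0.63 without the library labelled WT replicate 2 and -0.29 without WT replicate 3.
Igfbp1, a short-lived binding protein that insulin suppresses, had the same end libraries as Igfbp2. It was 13.75, 14.53 and 11.71 in WT and 14.16, 12.42 and 13.62 in Top1mt-KO, with a log2 fold change of 0.072. Per kilobase the mean log2 levels of the binding protein genes were 12.76 for Igfbp1, 11.55 for Igfbp4, 10.90 for Igfbp2, 10.44 for Igfbp7, 6.98 for Igfbp3, 5.22 for Igfbp5 and 4.70 for Igfbp6. Igfbp1, Igfbp4, Igfbp2 and Igfbp7 had ranges that overlapped those of their neighbours, and each of these 4 lay above Igfbp3, Igfbp5 and Igfbp6 in every tumor.

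**Figure D2:**
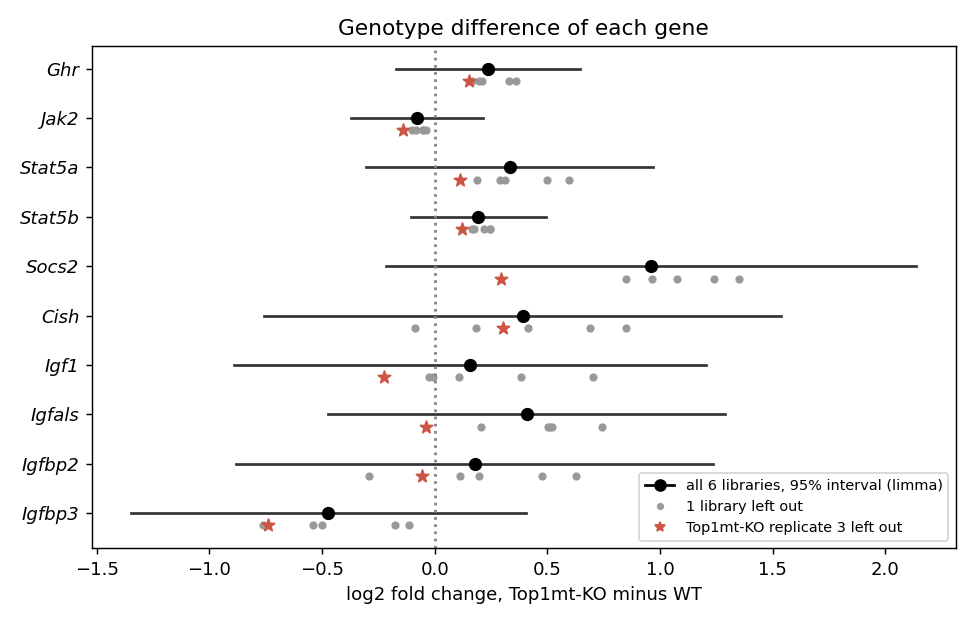
The black points give the log2 fold change of each gene, Top1mt-KO minus WT, over 6 libraries with the 95% interval from limma, and the marks below each bar give the same value with 1 library left out, a star where it is Top1mt-KO replicate 3. All 10 intervals include 0. The star lies below 0 while the black point lies above it for Igf1 (-0.22), Igfals (-0.040) and Igfbp2 (-0.058). For Jak2 (-0.14) and Igfbp3 (-0.74) both lie below 0.

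Markers of stellate cells and fibroblasts moved with Igfbp3 at both ends of its range. Of 10 such markers, collagens, Dcn, Lum and Pdgfrb among them, 9 had a lower mean in Top1mt-KO, where limma gave 0 adjusted and 1 unadjusted p under 0.05. Without Top1mt-KO replicate 1 the log2 fold changes of Col1a1, Col1a2, Col3a1, Pdgfrb and Des turned above 0 (0.21, 0.20, 0.18, 0.17 and 0.048). Those of Lrat, Dcn, Lum and Reln stayed below 0 (-0.72, -0.29, -0.22 and -1.02), and that of Acta2 was 0.90. The mean centred log2 value of the 10 markers was 0.92 in WT replicate 1, where Igfbp3 was highest, and -0.97 in Top1mt-KO replicate 1, where Igfbp3 was lowest. In between the order differed, since Top1mt-KO replicate 2 had the second highest marker value at 0.42 and only the fourth highest Igfbp3. Igfbp5 and Igfbp7, which are also made by mesenchymal and endothelial cells, had the same end libraries as Igfbp3, with 9.12 and 11.59 in WT replicate 1 against 6.67 and 9.70 in Top1mt-KO replicate 1. The summed log2 level of the 10 markers was 14.08 to 15.10 in WT and 13.95 to 14.56 in Top1mt-KO, and the mean of the lowest of them was 6.25. Summed endothelial markers ranged from 12.97 to 13.26 in WT and from 13.06 to 13.38 in Top1mt-KO. The part of these cells in the Igfbp3 values was not tested.

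**Figure D3:**
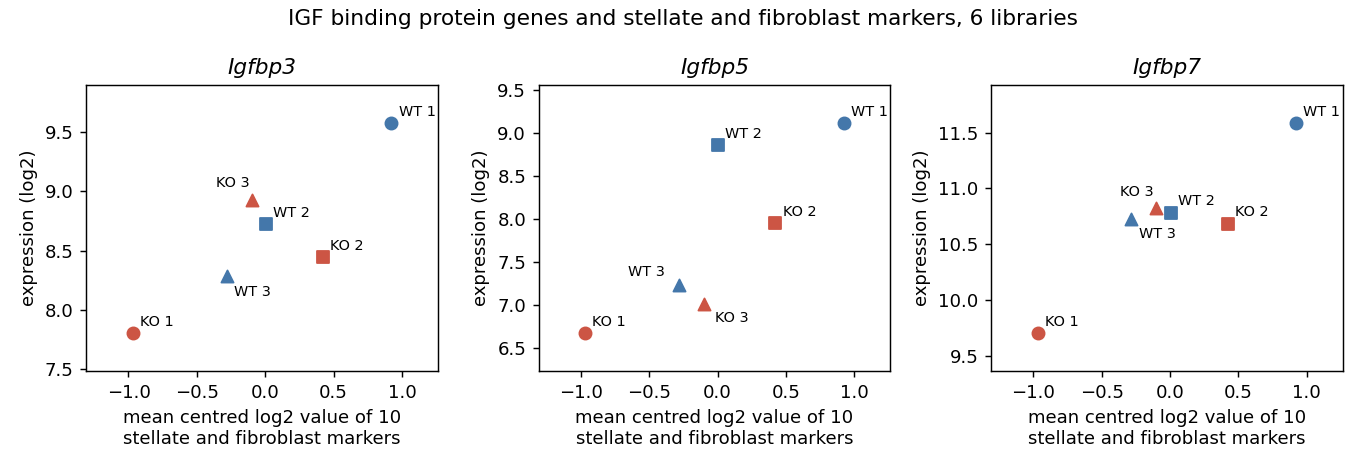
Each panel plots the log2 expression of 1 binding protein gene against the mean centred log2 value of 10 stellate and fibroblast markers in the 6 libraries, WT in blue and Top1mt-KO in red. WT replicate 1 is at the upper right (0.92 on the marker axis) and Top1mt-KO replicate 1 at the lower left (-0.97) for Igfbp3, Igfbp5 and Igfbp7.

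One tumor held the highest values of most of the 10 genes. Top1mt-KO replicate 3 was the highest library for 6 of the 10 genes, Ghr, Stat5a, Stat5b, Socs2, Igf1 and Igfals, and the lowest for 0. Over all genes tested this library was the highest for 16.1% and the lowest for 22.4%. The mean of the centred log2 values of the 10 genes was 0.62 there, 0.042 in Top1mt-KO replicate 2, and between -0.32 and -0.024 in the other 4 libraries. This mean pools genes that growth hormone moves in opposite directions, since it includes Igfbp2 at 0.56 in Top1mt-KO replicate 3. The STAT5 target Cish was 6.47 in that library, below 6.81 in WT replicate 3 and 6.70 in Top1mt-KO replicate 2. Top1mt-KO replicate 1 was lowest for Jak2, Igf1 and Igfbp3, and the library labelled WT replicate 2 for Stat5a, Cish and Igfals. The genotype difference therefore depended on which library was kept. Without Top1mt-KO replicate 1, Igf1 and Stat5a had an unadjusted p under 0.05 by limma, and Ghr, Stat5b, Igf1 and Stat5a did not overlap between groups, in a fit where 5.97% and 21.5% of all genes did so. Without Top1mt-KO replicate 3 the median log2 fold change of the 10 genes was 0.035 and 1 of the 10, Jak2, did not overlap, where 15.9% of all genes did not. Without WT replicate 1, 2 of the 10, Ghr and Stat5b, did not overlap, against 16.2% of all genes. The smallest adjusted p of any of the 10 genes over the 11 alternatives was 0.806.
Markers of other cells in Top1mt-KO replicate 3 stood as follows. Its summed lymphocyte markers were the highest of all libraries at 8.15 against 7.14 to 7.59, its summed endothelial markers the highest at 13.38, and its hepatocyte markers, at 21.60, lay within the range of the others. Summed macrophage markers ranged from 12.71 to 13.71 in WT and from 12.68 to 13.26 in Top1mt-KO, and summed bile duct markers from 11.68 to 12.66 and from 11.77 to 12.64. Over all genes tested 4.34% had an unadjusted p under 0.05 by limma. Of the 10 bile duct markers 3 had one, all lower in Top1mt-KO, and 0 had an adjusted p under 0.05. Their median log2 fold change was -0.94, and their mean centred log2 value, which weights each marker equally, did not overlap between groups, with 0.24, 0.069 and 1.11 in WT against -0.92, -0.059 and -0.44 in Top1mt-KO. The lowest bile duct marker had a mean of only 1.59 and the lowest lymphocyte marker one of 2.28, both low on the scale. Of 10 endothelial and of 10 macrophage markers, 1 each had an unadjusted p under 0.05 by limma, both higher in Top1mt-KO. The part of these cells in the high values was not tested.

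The rest of the signalling pathway gave few differences. Of 17 further genes of receptor signalling and feedback, 10 had a higher and 7 a lower mean in Top1mt-KO, with a median log2 fold change of 0.037, which ran from -0.054 without the library labelled WT replicate 2 to 0.11 without Top1mt-KO replicate 1 and was also below 0 without WT replicate 1 (-0.0012) and without Top1mt-KO replicate 2 (-0.040). By limma 0 had an adjusted p and 0 an unadjusted p under 0.05. Tyk2, a kinase of the JAK family, was the only one of these whose groups did not overlap, at 9.20 to 9.32 in WT and 9.44 to 9.46 in Top1mt-KO (a change of 0.19 log2 units, SE 0.12, adjusted p by limma 0.999). Over all genes tested the groups did not overlap in 8.28%. Socs3, the feedback inhibitor induced by interleukin-6 and STAT3, was 7.19, 6.95 and 8.55 in WT and 6.96, 6.38 and 6.71 in Top1mt-KO. The log2 fold change of -0.88 (SE 0.41) became -0.38 without WT replicate 3, its highest library. Prlr, the prolactin receptor, which is close kin to Ghr, had means of 9.49 ± 0.39 (SD, n = 3) in WT and 9.80 ± 0.31 in Top1mt-KO.
Stat3 had closely similar means, with 11.33 ± 0.13 in WT (SD, n = 3) against 11.32 ± 0.13 in Top1mt-KO.

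Transcription factors that work with STAT5 in liver were also compared. Of 10 such genes 3 had a higher and 7 a lower mean in Top1mt-KO, with a median log2 fold change of -0.14 and 0 at an unadjusted p under 0.05 by limma. Onecut1, which encodes HNF6, was 7.32, 7.55 and 8.94 in WT and 7.31, 7.65 and 7.73 in Top1mt-KO. Bcl6, a repressor that competes with STAT5 for its sites, was 9.53, 8.95 and 7.78 in WT and 9.68, 8.43 and 9.17 in Top1mt-KO. WT replicate 3 was thus highest for Onecut1 and lowest for Bcl6, and without it the log2 fold changes turned from -0.38 to 0.13 and from 0.34 to -0.14. Cux2, a factor that is largely female-specific in mouse liver, was low in all 6 tumors of these males, between 3.05 and 4.43.

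The 17 other genes of the IGF system had 6 higher and 11 lower means in Top1mt-KO, a median log2 fold change of -0.15 and 0 genes at an unadjusted p under 0.05 by limma. The largest falls were those of Igfbp6 (-1.23, SE 0.69), Pappa (-1.20, SE 0.99), Igfbp5 (-1.19, SE 0.52) and Igfbp7 (-0.63, SE 0.34), and the largest rise that of Stc1 (0.74, SE 0.71). Groups overlapped in each of these. With 1 library left out the value of Igfbp5 ran from -1.78 to -0.84. The median of the list was -0.41 without Top1mt-KO replicate 2, -0.38 without WT replicate 3, -0.057 without Top1mt-KO replicate 3 and -0.043 without WT replicate 1. Igf2, the fetal growth factor, was 3.58, 4.39 and 2.11 in WT and 3.18, 3.47 and 2.11 in Top1mt-KO, near the lower part of the scale in all 6 tumors. Igf1r, the receptor for IGF1, was 7.62, 6.43 and 6.64 in WT and 6.83, 6.33 and 6.65 in Top1mt-KO, and its log2 fold change of -0.29 was 0.068 without WT replicate 1. Igfbp4, the most even of the binding proteins, averaged 13.76 ± 0.014 in WT (SD, n = 3) against 13.63 ± 0.16 in Top1mt-KO.

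Sex-biased liver genes, a long-known readout of growth hormone pulses, were examined in the same tumors. Among 16 male-biased genes 9 had a higher and 7 a lower mean in Top1mt-KO, with a median log2 fold change of 0.0089, which was -0.013 after quantile normalization, -0.028 without WT replicate 3, -0.44 without the library labelled WT replicate 2 and -0.41 without Top1mt-KO replicate 3. By limma 0 had an adjusted p under 0.05, and 1, Cyp2d9, had an unadjusted p under 0.05. Cyp2d9, a male-biased cytochrome P450, was 13.01, 12.54 and 12.20 in WT and 11.41, 12.17 and 12.14 in Top1mt-KO, without overlap (a change of -0.67 log2 units, SE 0.28, adjusted p by limma 0.999).
The tumor with high Socs2 also had the highest values of most of the 16 listed male-biased genes. Top1mt-KO replicate 3 was the highest library for 10 of the 16, against 16.1% of all genes tested. It was the highest for 7 of the 21 Mup genes, a male-biased family that this list leaves out and that is described further below. Hsd3b5, a steroid dehydrogenase found in male liver, was 6.46, 6.24 and 4.16 in WT and 6.10, 4.35 and 9.10 in Top1mt-KO. Elovl3, a fatty acid elongase, was 7.23, 6.18 and 6.74 in WT and 8.35, 5.54 and 9.42 in Top1mt-KO. In both genes Top1mt-KO held the highest library, and for Elovl3 also the lowest, Top1mt-KO replicate 2. Cyp7b1, an oxysterol hydroxylase, followed less steeply, at 8.85 in Top1mt-KO replicate 3 against 7.57 to 8.58 in the others. Cyp4a12a, which shares most of its sequence with Cyp4a12b so that the assignment of reads between them is uncertain, was 8.64, 7.47 and 7.96 in WT and 8.00, 5.81 and 7.96 in Top1mt-KO.

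Female-biased genes went in both directions. Of 25, 24 were tested, and 10 had a higher and 14 a lower mean in Top1mt-KO, with a median log2 fold change of -0.077. Their mean centred log2 value was 0.0721, 0.209 and 0.0714 in WT and 0.0697, -0.358 and -0.0638 in Top1mt-KO, narrowly without overlap. The summed log2 level of the 25, of which Cyp2a4 was the most abundant, was 15.63 to 15.98 in WT and 13.82 to 15.18 in Top1mt-KO. By limma 0 of the 24 had an adjusted p under 0.05, and 4 had an unadjusted p under 0.05 (1 higher and 3 lower), against 4.34% of all genes tested. Cyp2a4, a steroid hydroxylase that shares most of its sequence with Cyp2a5, was 15.35, 15.36 and 15.67 in WT and 14.37, 14.35 and 12.62 in Top1mt-KO, without overlap (a change of -1.68 log2 units, SE 0.48, adjusted p by limma 0.999). It was lowest in Top1mt-KO replicate 3, and without that library its log2 fold change was -1.10. Acot3, a peroxisomal thioesterase, was 6.11, 5.25 and 6.22 in WT and 4.21, 4.70 and 3.27 in Top1mt-KO (a change of -1.80 log2 units, SE 0.48, adjusted p by limma 0.987). Atp6v0d2, a subunit of the vacuolar proton pump, went the other way without overlap, at 6.12, 6.68 and 5.88 in WT and 7.02, 7.39 and 8.88 in Top1mt-KO (a change of 1.53 log2 units, SE 0.47, adjusted p by limma 0.999), and 0.98 without Top1mt-KO replicate 3.
Cyp2b9, of the phenobarbital-inducible P450 family, was 11.02, 12.92 and 11.99 in WT and 12.33, 11.52 and 9.18 in Top1mt-KO, and its log2 fold change of -0.96 was -0.049 without Top1mt-KO replicate 3. Cyp2b13, its close relative, was 6.77, 9.23 and 10.67 in WT and 7.68, 6.43 and 6.10 in Top1mt-KO, with a log2 fold change of -2.15 that was -1.26 without WT replicate 3 and overlapping groups. Top1mt-KO replicate 3 was the lowest library for 6 of the 24 female-biased genes and the highest for 6 others, Cyp2c40 and Cyp2c69 among the latter with 8.14 and 5.69. Over all genes tested it was the lowest for 22.4% and the highest for 16.1%, so both counts lay near the share over all genes.

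**Figure D4:**
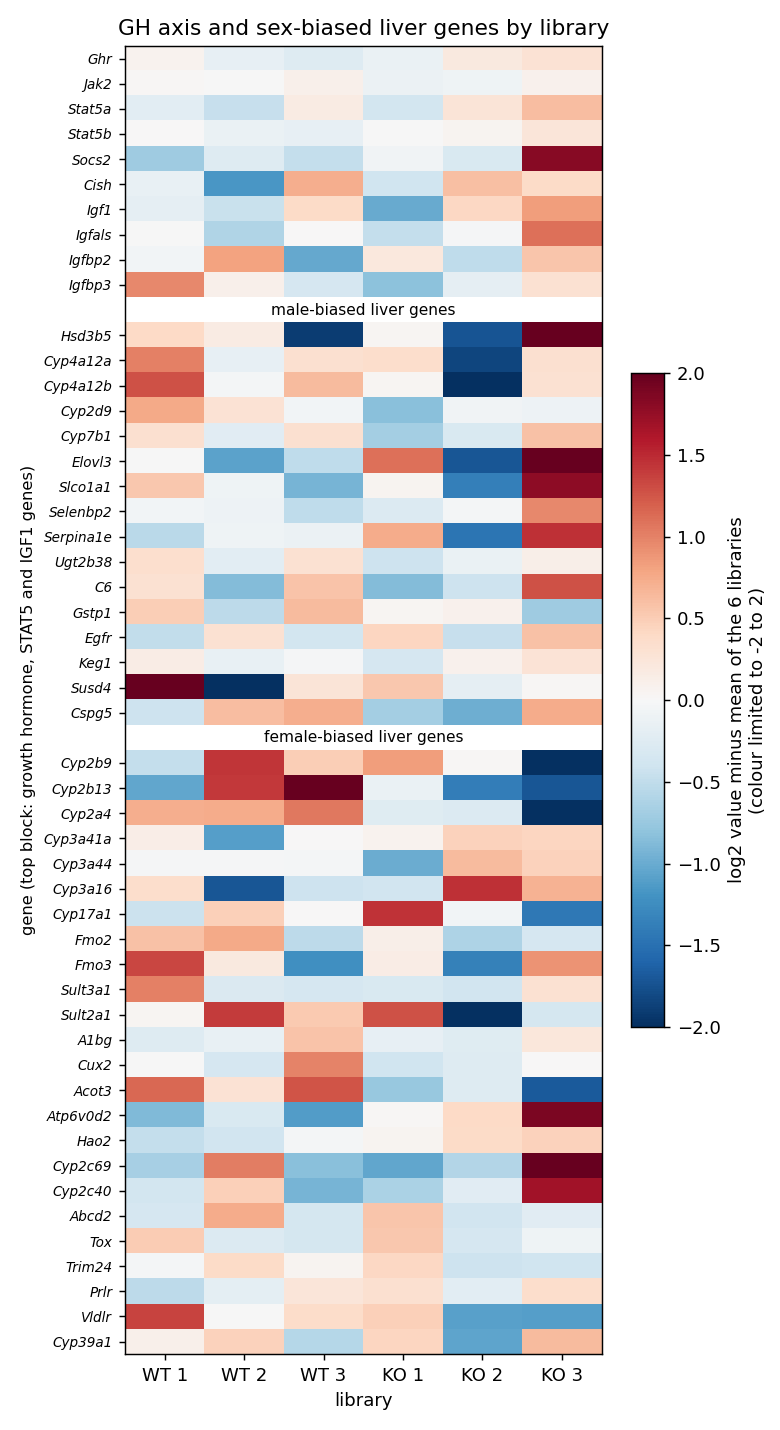
Rows are the 10 growth hormone, STAT5 and IGF1 genes, 16 male-biased and 24 female-biased liver genes, columns are the 6 libraries (KO for Top1mt-KO), and color is the log2 value minus the mean of the 6 libraries, limited to 2 in either direction. In Top1mt-KO replicate 3 Socs2, Igfals, Hsd3b5 and Elovl3 are high while Cyp2b9 and Cyp2a4 are low, and Cyp2c40 and Cyp2c69 are high.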

How the data were processed

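The authors trimmed reads from stranded libraries, aligned them, kept uniquely mapped reads, counted them per gene with featureCounts (Subread) and used DESeq2. For the aligner and genome the paper names BWA and Mm 8, whereas the submitters' processing notes name STAR 2.5.1 and GRCm38. Of the 30231 symbols, 99.1% occur in GENCODE M21 on GRCm38, whose exons gave lengths and overlaps. The deposited values are log2 expression per gene symbol, whose transform is not given in the sources used here. The table has 3 columns without a name, left unused here, and 0 other per-sample columns. Such values do not give back read totals, and count models were not used.

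The genotype test was limma 3.58.1 under R 4.3.3 (lmFit, eBayes with a mean-variance trend, Benjamini-Hochberg adjustment) on the 22677 genes left after dropping the 25% with the lowest mean, and genes were called at an adjusted p of 0.05. Exact permutation tests used SciPy 1.17.1. Groups and replicate numbers came from the sample titles. Nothing in the labels says how the tumors were drawn from animals, so p-values measure the spread between these samples. The procedure was tested on simulated data.

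The 10 genes and all lists were chosen with earlier results of these data known, and lists were written by hand. Named genes are the 10, Top1mt, 17 genes fixed by name, and from each pathway list up to 3 genes with the largest change among those whose groups did not overlap. Others (Igfbp5, Igfbp6, Igfbp7, Pappa, Stc1, Lepr, Mup3, Mup20, Cyp2c40, Cyp2c69, Gm42418) were named after their values were seen. Alternatives were limma without trend, quantile normalization, no filter, a filter at the median, a replicate block, and each library left out. Some results are not reported here.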

Additional observations from a re-analysis of the deposited data

How the results depend on the processing

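None of the 32 named genes passed an adjusted p of 0.05 by limma under any of the 11 alternatives (smallest 0.592). Over all genes tested, 4 passed with no filter on low values and 0 to 1 with one library left out (1 without Top1mt-KO replicate 1). A filter at the median left 590 genes at an unadjusted p under 0.05 by limma, 3.90% of the genes then tested against 4.34% in the main fit. With one library left out, 3598 to 4878 genes did not overlap between groups, since fewer values have to be ordered. Of the 10 growth hormone, STAT5 and IGF1 genes, 0 to 2 then had an unadjusted p under 0.05 and 0 to 4 did not overlap. The median log2 fold change ran from -0.18 to -0.038 for the transcription factors and from -0.27 to -0.017 for the female-biased genes.

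Leaving out one library turned the direction of 12 of the 32 named genes, and no other setting did. Log2 fold changes ran from -0.089 to 0.85 for Cish, -0.22 to 0.70 for Igf1, -0.040 to 0.74 for Igfals, -0.29 to 0.63 for Igfbp2, -0.68 to 0.13 for Onecut1, -0.14 to 0.73 for Bcl6, -0.080 to 0.064 for Stat3, -1.07 to 0.071 for Igf2, -0.53 to 0.068 for Igf1r, -0.74 to 0.67 for Igfbp1, -0.40 to 1.98 for Hsd3b5 and -0.64 to 0.0042 for Cyp7b1. The causes were not tested. Log2 fold changes ran from 0.15 to 0.36 for Ghr, -0.14 to -0.040 for Jak2 and 0.12 to 0.24 for Stat5b. Signs of Ghr, Jak2, Stat5a, Stat5b, Socs2 and Igfbp3 were the same throughout.

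With the replicate number as a block, 0 genes passed an adjusted p of 0.05 by limma and 912 had an unadjusted p under 0.05, 0 of them among the 10 genes. Deviations of same-numbered libraries correlated at -0.123, -0.0759 and 0.0520, which does not pair the tumors. Without depth, no limit from read counts can be given.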

Other observations

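The major urinary protein genes, a large male-biased family induced by growth hormone pulses, were looked at after their values were seen. All 21 Mup symbols of the table were tested, and 6 had a higher and 15 a lower mean in Top1mt-KO, with a median log2 fold change of -0.31 and 0 at an unadjusted p under 0.05 by limma. The family shares most of its sequence, so the split of uniquely mapped reads between members is uncertain and the values are best read together. The mean of their centred log2 values came to 0.28, 0.21 and -0.050 in the WT libraries and to 0.31, -0.81 and 0.063 in the Top1mt-KO libraries, each in the order of replicates 1 to 3. This mean weights weakly expressed members as much as abundant ones and was lowest in Top1mt-KO replicate 2. The log2 of the summed linear values, which the abundant members set, was 15.74, 15.30 and 15.62 in WT and 15.43, 15.37 and 15.83 in Top1mt-KO. By the sum Top1mt-KO replicate 3 was highest and the library labelled WT replicate 2 lowest, so the order of the libraries depended on the measure. The abundant Mup20 and Mup3 differed little, at 14.66 to 15.10 and 13.50 to 14.09 in WT and at 14.77 to 15.20 and 13.59 to 14.12 in Top1mt-KO.

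Lepr, the leptin receptor, a further cytokine receptor that signals through JAK2, was 8.88, 9.18 and 7.40 in WT and 8.83, 10.13 and 9.78 in Top1mt-KO. Its log2 fold change came to 1.09 (SE 0.49) and the groups overlapped (exact permutation p = 0.3), and it was 0.55 without WT replicate 3.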
